A study of Mus musculus with 12 samples.

Results

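The 10 genes described here serve absorption in the small intestine and were read out in mouse rectum: Fabp1, Fabp2, Fabp6, Apoa1, Apoa4, Apob, Mttp, Alpi, Anpep and Lct. They were taken by name from the deposited table, so no measured value chose them, and they are 10 of its 27785 genes. All 10 reached the level required for testing, 1 FPKM or more in 2 or more libraries of 12, as did 17360 genes in all. FPKM is the number of fragments scaled to transcript length and to library size, so levels can be set side by side between genes.

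Absorptive cells of the small intestine take fatty acids across the brush border and hold them on fatty acid binding proteins. They rebuild triglyceride, load it onto apolipoprotein B with the microsomal transfer protein Mttp and release it as chylomicrons that also carry Apoa1 and Apoa4. Peptidases, phosphatases and disaccharidases on the same brush border finish digestion. In the adult gut most of these genes are known for high levels in the small intestine and low levels in the large intestine, while Fabp1, Apoa1, Apob and Mttp are also genes of the liver.

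The 12 libraries came from whole rectum and fell into 4 groups. Mice of the 3 Apc groups had floxed alleles of Apc, whose product restrains Wnt signalling, together with CreER, a Cre recombinase that tamoxifen switches on. The 4 Lgr5-Apc libraries have the Lgr5 driver, a gene known from stem cells at the crypt base, and the 3 Cdx2-Apc libraries the driver of Cdx2, a regulator of hindgut identity. The 2 Lgr5-Cdx2-Apc libraries have both drivers. The 3 controls are titled as wild type, but their genotype entry holds the Cdx2 driver with floxed Apc and, in brackets, wild type, so which alleles these mice lacked cannot be read from the labels. The treatment protocol on every sample gives tamoxifen at 25 mg/kg on 5 days, also on the controls, whose own treatment field is missing. Age, sex and the extent of recombination are not given in the sources used here. Nothing states whether the samples came from separate animals, so the p-values cover the spread among these samples only.

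Total FPKM ran from 451297 to 728462 per library, and between 20522 and 22562 genes were above 0. Depth in reads is unknown. Mean log2(FPKM + 1) over 8 columnar epithelium markers, Epcam and Vil1 among them, ran from 7.96 to 8.64 in 9 libraries, and was 6.24 in Lgr5-Apc replicate 2 and 6.46 and 3.80 in Lgr5-Cdx2-Apc replicates 1 and 2. The same mean over 12 squamous epithelium markers ran from 0.566 in Lgr5-Apc replicate 4 to 10.2 in Lgr5-Apc replicate 2 and came to 7.82 and 9.46 in those of Lgr5-Cdx2-Apc. All 12 colonocyte markers were tested, with means from 6.70 to 7.46 in control, 4.74 to 6.77 in Lgr5-Apc, 7.10 to 7.45 in Cdx2-Apc and 3.15 to 5.64 in Lgr5-Cdx2-Apc. In whole tissue, fewer cells of a type and less RNA per cell cannot be told apart.

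Stretches upstream of 3 of the genes are shown because these genes had different highest libraries, Fabp1 in control replicate 1, Fabp2 in Lgr5-Apc replicate 4 and Alpi in Lgr5-Cdx2-Apc replicate 1. They are RefSeq promoter bases of GRCm38.p6, written 5′ to 3′ on the gene's strand and ending just before the gene's start in GENCODE M21. Capitals mark matches to 4 short motifs of intestinal regulators, searched on both strands in the 250 bases before the RefSeq start: AGATAA for GATA factors, TTTATG and TTTATT for CDX factors, AAAGTCC for HNF4 and GTTAAT for HNF1. The Fabp1 stretch is chr6:71199629-71199826 on the plus strand, that of Fabp2 is chr3:122894822-122895071 on the plus strand, and that of Alpi is chr1:87101607-87101856 on the minus strand.
Fabp1: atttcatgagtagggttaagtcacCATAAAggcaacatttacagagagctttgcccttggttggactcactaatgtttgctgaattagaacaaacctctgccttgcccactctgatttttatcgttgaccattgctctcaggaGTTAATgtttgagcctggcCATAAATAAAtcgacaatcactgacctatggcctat
Fabp2: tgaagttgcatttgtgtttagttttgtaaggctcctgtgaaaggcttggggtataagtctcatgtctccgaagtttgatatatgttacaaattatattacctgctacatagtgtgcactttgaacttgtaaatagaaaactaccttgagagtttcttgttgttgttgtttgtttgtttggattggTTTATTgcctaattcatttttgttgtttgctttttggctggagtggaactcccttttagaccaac
Alpi: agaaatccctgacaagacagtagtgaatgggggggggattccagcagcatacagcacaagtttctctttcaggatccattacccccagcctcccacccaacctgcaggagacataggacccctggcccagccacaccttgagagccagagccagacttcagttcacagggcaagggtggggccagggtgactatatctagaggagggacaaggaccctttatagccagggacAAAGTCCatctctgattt
All 10 genes had a promoter entry. A CDX motif stood in 4 of the 10 (Fabp1, Fabp2, Fabp6 and Lct), against 25.5% of all 32851 promoters in the table. The GATA motif stood in 1 (Lct), against 9.99% of promoters, the HNF4 motif in 1 (Alpi), against 3.58%, and the HNF1 motif in 1 (Fabp1), against 6.43%. In Fabp1 the last capitals mark CDX matches that overlap, and the RefSeq start lies 52 bases past the end of the printed stretch. The windows of Mttp and Anpep lie wholly inside the gene as GENCODE draws it, those of Fabp1, Apoa1, Apoa4 and Apob run past its start, and 4 of the 10 lie wholly before it. A match describes the letters only.

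**Figure D1:**
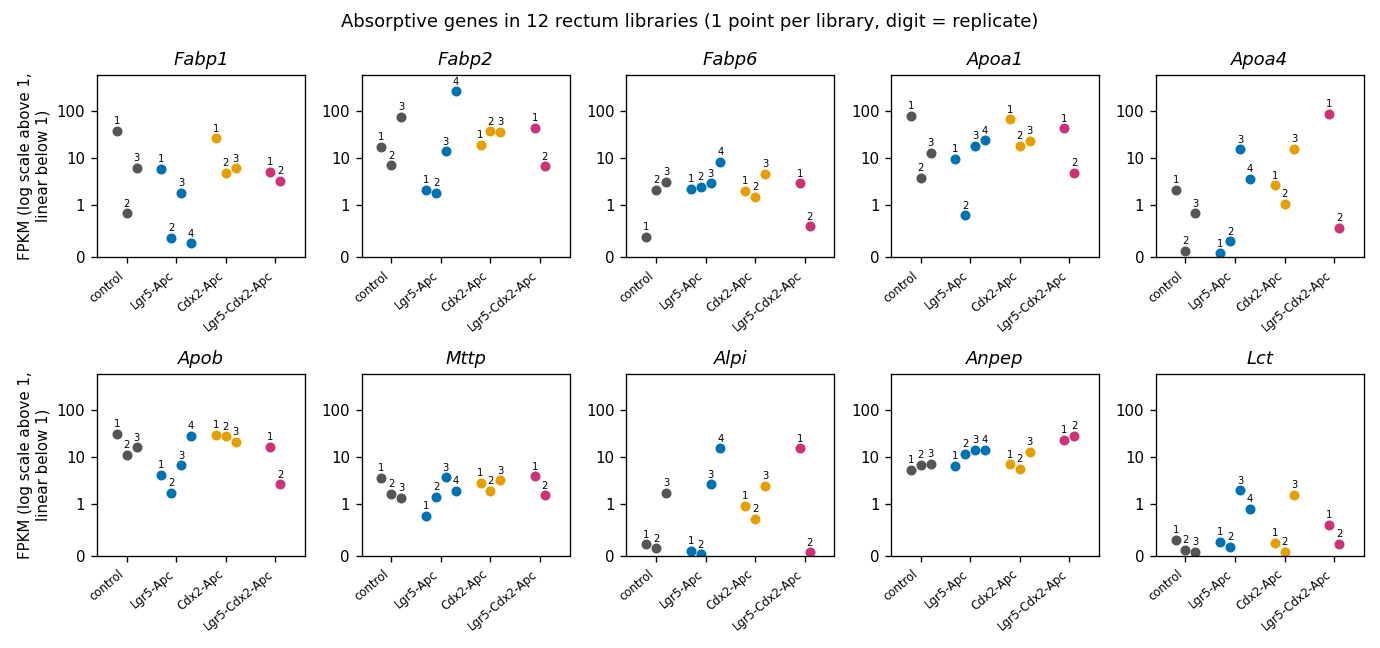
Level of each of the 10 genes in FPKM (vertical axis, logarithmic above 1 and linear below) in the 12 rectum libraries, 1 point per library with its replicate number, in columns by group. Anpep is the gene whose 2 Lgr5-Cdx2-Apc libraries lie above every other library, while Fabp2 runs from 1.83 to 268.4 FPKM within the Lgr5-Apc group alone.

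Fabp1, the fatty acid binding protein of liver and proximal intestine, lies on chromosome 6 from 71199827 to 71205023 (plus strand, ENSMUSG00000054422.7, protein coding, GENCODE M21 on GRCm38 as for all positions here). It was at 38.9, 0.843 and 6.20 FPKM in control replicates 1 to 3 and at 26.6, 4.88 and 6.11 FPKM in Cdx2-Apc replicates 1 to 3. It was at 5.99, 0.367, 1.85 and 0.268 FPKM in Lgr5-Apc replicates 1 to 4 and at 5.13 and 3.34 FPKM in Lgr5-Cdx2-Apc replicates 1 and 2. Replicate 1 of the control and of the Cdx2-Apc group stood highest, and the groups overlapped. Lgr5-Apc had the lowest mean, 2.12 ± 2.68 FPKM (SD, n = 4), then Lgr5-Cdx2-Apc with 4.24 ± 1.26 (n = 2), Cdx2-Apc with 12.5 ± 12.2 (n = 3) and control with 15.3 ± 20.6 (n = 3), and no neighbours in that order differed beyond their spread. The log2 difference of Lgr5-Apc was -1.74 ± 0.98 (SE) from control and -2.11 ± 0.98 from Cdx2-Apc, with adjusted p = 0.516 and 0.487 (limma, Benjamini-Hochberg over all genes tested). Without control replicate 1 the difference from control was -0.59.

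Albumin, Alb, the main secreted protein of hepatocytes, was highest in the same pair of libraries as Fabp1 and lowest in the same library. It was at 901.5, 34.7 and 162.7 FPKM in the control replicates, at 66.7, 19.5, 10.6 and 4.49 in Lgr5-Apc, at 780.6, 174.2 and 132.0 in Cdx2-Apc, and at 116.4 and 72.4 in Lgr5-Cdx2-Apc. Over the 12 libraries, log2(FPKM + 1) of Fabp1 had r = 0.96 and rho = 0.90 with the mean of 9 hepatocyte markers, and the genes most like it among 15509 searched were Serpina1b, Fgg and Serpina1d, each at r = 0.98, which encode plasma proteins secreted by the liver. Fabp1 per 100 FPKM of Alb was between 2.43 and 4.63 FPKM in the control, Cdx2-Apc and Lgr5-Cdx2-Apc libraries, and was 8.98, 1.89, 17.4 and 5.96 in Lgr5-Apc replicates 1 to 4.

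None of the 9 hepatocyte markers was listed at 0 in every library. Their summed level ran from 110.8 to 1282 FPKM in control, 16.1 to 141.3 in Lgr5-Apc, 258.0 to 1101 in Cdx2-Apc and 99.8 to 176.9 in Lgr5-Cdx2-Apc. Of the 9, 0 passed the adjusted threshold in Lgr5-Apc against control, beside 0.0115% of all genes tested. At an unadjusted p below 0.05 were 8 of the 9, beside 10.8% of all genes (limma). The median log2 difference of the 9 was -2.09. Their part in the Fabp1 levels was not tested, and with the hepatocyte mean as a covariate the log2 difference of Lgr5-Apc from control became 0.89.

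**Figure D2:**
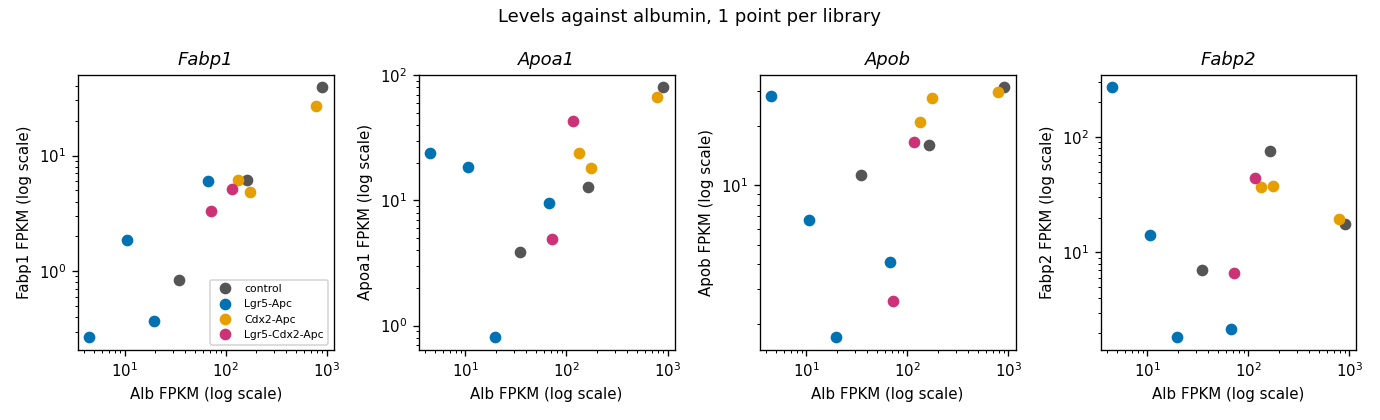
Levels of Fabp1, Apoa1, Apob and Fabp2 (vertical axes, FPKM, logarithmic) against albumin (horizontal axes, FPKM, logarithmic), 1 point per library, coloured by group. Fabp1 runs along albumin in the 12 libraries, while the library with the highest Fabp2, at 268.4 FPKM, has the lowest albumin, at 4.49 FPKM.

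Fabp2, the intestinal fatty acid binding protein of enterocytes (chromosome 3, 122895072 to 122899506, plus strand, ENSMUSG00000023057.5), had its lowest and its highest library in the same group. It was at 2.15, 1.83, 14.0 and 268.4 FPKM in Lgr5-Apc replicates 1 to 4 and at 17.5, 7.07 and 75.9 FPKM in the control replicates. The Cdx2-Apc libraries were closer together at 19.4, 37.5 and 37.0 FPKM, and those of Lgr5-Cdx2-Apc were at 44.0 and 6.68 FPKM. The Lgr5-Apc group spanned the levels of the other 3 groups. The correlation of Fabp2 with the hepatocyte mean was 0.03 over the 12 libraries. The genes most like Fabp2 were B4galnt2, Btnl1 and 1810065E05Rik, each at r = 0.93 and each highest in Lgr5-Apc replicate 4.

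Fabp6, the bile acid binding protein of the ileum (chromosome 11, 43596049 to 43601540, minus strand, ENSMUSG00000020405.4), was low throughout. It was at 0.393, 2.10 and 3.16 FPKM in control, at 2.20, 2.45, 2.92 and 8.41 in Lgr5-Apc, at 2.04, 1.49 and 4.65 in Cdx2-Apc and at 2.90 and 0.596 in Lgr5-Cdx2-Apc. Lgr5-Apc replicate 4 was again the highest library, as it was for the genes most like Fabp6, Alg12 at r = 0.88, and Glrx5 and Ndrg1 at 0.86. The same library stood apart in other ileal genes of bile acid handling, which were looked up after their values had been seen. The apical transporter Slc10a2 was at 54.5 FPKM there and between 1.45 and 13.5 in the other 11 libraries, and Slc51a and Slc51b, which form the basolateral exporter, were at 70.7 and 34.8 FPKM against at most 8.59 and 9.83. Fgf15, the hormone that the ileum secretes in response to bile acids, was listed at 0 in 11 libraries, this one among them. Cdx2 itself was at 150.8 FPKM in Lgr5-Apc replicate 4, at 0.836, 0.248 and 0.858 in Lgr5-Apc replicates 1 to 3 and at most at 30.4 in any library of the other groups. The differences of Fabp2 and Fabp6 missed the threshold in all 6 comparisons of groups.

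Apoa1, the main protein of high density lipoprotein and a coat protein of chylomicrons (chromosome 9, 46228580 to 46230466, plus strand, ENSMUSG00000032083.8), was at 1 FPKM or more in 11 of 12 libraries. It was at 80.1, 3.86 and 12.8 FPKM in control and at 67.3, 18.2 and 23.7 in Cdx2-Apc. It was at 9.59, 0.804, 18.5 and 24.1 FPKM in Lgr5-Apc and at 43.1 and 4.89 in Lgr5-Cdx2-Apc. As for Fabp1, replicate 1 of control and of Cdx2-Apc were the highest, and the groups overlapped. Its correlation with the hepatocyte mean was 0.63. The most alike genes were Abcc2, a canalicular and enterocyte export pump, and H2-Q10, each at r = 0.90, and Creb3l3 at 0.85.

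Apoa4, a chylomicron protein of the proximal intestine (chromosome 9, 46240696 to 46243459, plus strand, ENSMUSG00000032080.6), begins 10229 bases after Apoa1 ends, with Apoc3 between them. It was at 2.11, 0.118 and 0.841 FPKM in control, at 0.0761, 0.309, 15.4 and 3.59 in Lgr5-Apc and at 2.64, 1.06 and 16.1 in Cdx2-Apc. In Lgr5-Cdx2-Apc it was at 88.0 FPKM in replicate 1 and at 0.566 in replicate 2. The highest library and one of the low ones were thus in the same group. Its log2 difference from control, 2.67 ± 1.64, missed the threshold (limma adjusted p = 0.258) and was -0.25 without Lgr5-Cdx2-Apc replicate 1. Apoa4 and Apoa1 had r = 0.54 over the 12 libraries, while Apoa4 and Mttp had r = 0.81. The genes most like Apoa4 were H2-T22 at r = 0.88, Akp3, an alkaline phosphatase of the small intestine, at 0.87, and Gm27957 at 0.81. Akp3 was at 29.9 FPKM in Lgr5-Cdx2-Apc replicate 1 and at most 1.33 FPKM in the others.

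Apob, the structural protein of chylomicrons and of liver lipoproteins (chromosome 12, 7977648 to 8016835, plus strand, ENSMUSG00000020609.14), was at 31.2, 11.3 and 16.0 FPKM in control and at 29.4, 27.6 and 20.7 in Cdx2-Apc. It was at 4.11, 1.71, 6.66 and 28.3 FPKM in Lgr5-Apc and at 16.5 and 2.62 in Lgr5-Cdx2-Apc. Cdx2-Apc had the highest mean, 25.9 ± 4.56 FPKM (n = 3), followed by control with 19.5 ± 10.4 (n = 3), Lgr5-Apc with 10.2 ± 12.2 (n = 4) and Lgr5-Cdx2-Apc with 9.58 ± 9.85 (n = 2). Both Lgr5-Cdx2-Apc libraries lay below all of Cdx2-Apc, a pattern shared by 30.4% of all genes tested, with a log2 difference of -1.74 ± 0.91 (limma adjusted p = 0.179). That difference was -2.88 without Lgr5-Cdx2-Apc replicate 1 and -0.60 without replicate 2, and the difference from control of -1.24 became -2.38 and -0.11. Lgr5-Apc differed from Cdx2-Apc by -1.83 ± 0.76 (adjusted p = 0.450), with 3 of its 4 libraries below all of Cdx2-Apc. The correlation of Apob with the hepatocyte mean was 0.54 with the columnar epithelium mean 0.63 and with the squamous mean -0.69. The part of these cell types in the Apob and Apoa1 levels was not tested. The Lgr5-Cdx2-Apc difference of Apob from Cdx2-Apc was 1.18 with the columnar mean as a covariate, -0.60 with the squamous mean and -1.55 with the hepatocyte mean. The genes most like Apob were Abcc2 at r = 0.93, then Gm15200 and Otc, an enzyme of the urea cycle in liver and intestine, each at 0.92.

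Mttp (chromosome 3, 138089854 to 138144968, minus strand, ENSMUSG00000028158.14) had the smallest ratio of highest to lowest library among the 10, at 4.98, from 0.772 FPKM in Lgr5-Apc replicate 1 to 3.85 in Lgr5-Cdx2-Apc replicate 1. Group means were 2.18 ± 1.20 FPKM in control, 1.94 ± 1.24 in Lgr5-Apc, 2.63 ± 0.649 in Cdx2-Apc and 2.69 ± 1.64 in Lgr5-Cdx2-Apc. These groups overlapped, and the difference of Lgr5-Cdx2-Apc from control was 0.20 ± 0.44 on the log2 scale. The genes most like Mttp were Gm12222 at r = 0.79, Anp32b-ps1 at 0.78 and Gm8806 at 0.73.

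**Figure D3:**
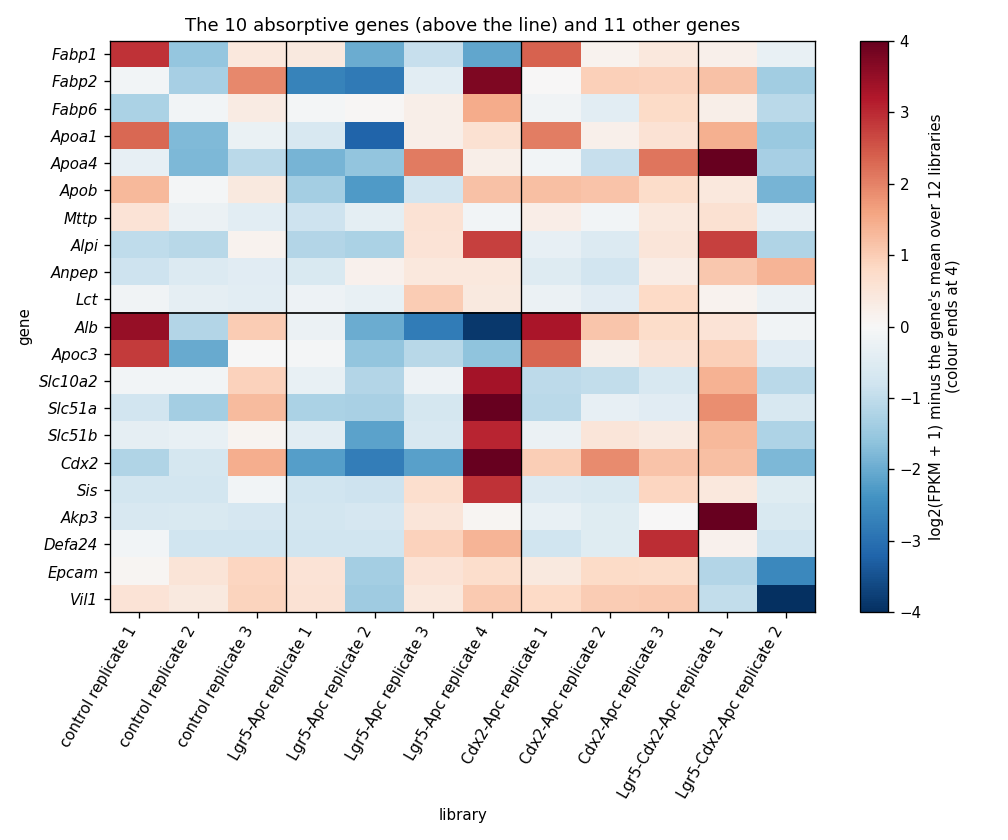
Log2(FPKM + 1) minus the gene's mean over the 12 libraries (colour, red above and blue below the mean, ending at 4), for the 10 absorptive genes above the horizontal line and 11 other genes below it, by library. The highest values of Fabp1, Apoa1 and Apob fall in control replicate 1, where Alb is at 901.5 FPKM, those of Fabp2 and Fabp6 in Lgr5-Apc replicate 4, where Slc10a2 is at 54.5 FPKM, and those of Apoa4, Mttp and Alpi in Lgr5-Cdx2-Apc replicate 1.

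Alpi, the intestinal alkaline phosphatase (chromosome 1, 87098002 to 87101606, minus strand, ENSMUSG00000079440.2), was close to 0 in most libraries. It was at 0.223, 0.149 and 1.70 FPKM in control, at 0.106, 0.0365, 2.62 and 15.4 in Lgr5-Apc, at 0.963, 0.710 and 2.47 in Cdx2-Apc and at 15.4 and 0.0698 in Lgr5-Cdx2-Apc. Lgr5-Apc replicate 4 and Lgr5-Cdx2-Apc replicate 1 were thus alike in Alpi, the other 10 libraries lay at 2.62 FPKM or below, and each of the high ones had a library of its own group near 0. Alpi lies 23366 bases from its relative Akp3, and the values of both are uncertain where the authors' counting could split reads between such relatives. Both were at their highest in Lgr5-Cdx2-Apc replicate 1, where Akp3 was at 29.9 FPKM, while Akp3 was at 0.790 FPKM in Lgr5-Apc replicate 4. Prap1, a secreted protein of the small intestinal epithelium, was the gene most like Alpi at r = 0.98, followed by H2-K1 at 0.92 and Clstn1 at 0.91.

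Anpep, aminopeptidase N, trims peptides at the brush border and is also made by myeloid and stromal cells (chromosome 7, 79821803 to 79861059, minus strand, ENSMUSG00000039062.15). It was at 5.42, 6.78 and 7.25 FPKM in control and at 7.04, 5.64 and 12.9 in Cdx2-Apc. It was at 6.40, 11.7, 14.2 and 14.2 FPKM in Lgr5-Apc and at 23.2 and 28.4 in Lgr5-Cdx2-Apc. Both Lgr5-Cdx2-Apc libraries lay above the other 10. Mean levels ran from 6.48 ± 0.955 FPKM in control (n = 3) over 8.51 ± 3.83 in Cdx2-Apc (n = 3) and 11.7 ± 3.69 in Lgr5-Apc (n = 4) to 25.8 ± 3.66 in Lgr5-Cdx2-Apc (n = 2), and the first 3 neighbours in that order overlapped.

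Anpep rose in Lgr5-Cdx2-Apc against control, by 1.84 ± 0.36 on the log2(FPKM + 1) scale (limma adjusted p = 0.0113), and against Cdx2-Apc, by 1.56 ± 0.36 (adjusted p = 0.0157). Against Lgr5-Apc the difference of 1.13 ± 0.34 missed the threshold (adjusted p = 0.0642). Both calls were lost when either Lgr5-Cdx2-Apc library was left out, with adjusted p = 0.0527 and 0.129 against control and 0.0611 and 0.137 against Cdx2-Apc. The call against Cdx2-Apc was also lost without Cdx2-Apc replicate 2 (adjusted p = 0.0555), and the difference from Lgr5-Apc passed without Lgr5-Apc replicate 2 (adjusted p = 0.0484). The other comparisons of Anpep gave 0.71 ± 0.30 for Lgr5-Apc against control, 0.28 ± 0.32 for Cdx2-Apc against control and 0.43 ± 0.30 for Lgr5-Apc against Cdx2-Apc, none of which passed. The first and second of these share the control libraries.

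Markers of other cell types also varied over the 12 libraries. Anpep had r = -0.89 and rho = -0.65 with the mean of 8 smooth muscle markers. With that of 12 squamous markers it had r = 0.55 and rho = 0.41. With that of 8 columnar epithelium markers r was -0.70 but rho only -0.17. In Lgr5-Cdx2-Apc against control all 8 smooth muscle and 7 of 8 columnar markers fell and 6 of 7 skeletal muscle markers rose (limma), beside 19.1% of all genes called. Of the 12 squamous markers 2 rose (Ivl and Lor, named after their values were seen), a share below that background. The median log2 difference of the 12 was nevertheless 5.56. The summed squamous level was 12260 and 22910 FPKM in the Lgr5-Cdx2-Apc libraries and between 66.4 and 4647 in control, and no marker of that list was at 0 in every library. Lgr5-Apc replicate 4 had the lowest squamous mean of all and held Anpep at 14.2 FPKM. The 7 macrophage markers summed to between 22.3 and 115.3 FPKM in control and to 82.4 and 130.0 in Lgr5-Cdx2-Apc, and the 7 fibroblast markers to between 116.6 and 400.1 and to 324.7 and 491.7. By gene, 0 of 7 macrophage markers passed against control, with a median log2 difference of 0.76, and 0 of 7 fibroblast markers, with a median of -0.57. Each list had 2 at an unadjusted p below 0.05 (limma), a share below the 36.9% of all genes tested. The part of these cell types in the Anpep difference was not tested. With the squamous mean as a covariate the difference from control was 1.74 (limma adjusted p = 0.0376, still called) and that from Cdx2-Apc 1.43 (adjusted p = 0.0974). With the hepatocyte mean both calls stayed (adjusted p = 0.0232 and 0.0438). With the columnar mean both were lost, at 1.75 (adjusted p = 0.380) and 1.46 (adjusted p = 0.524). Those columnar fits called 87 and 83 of all 17360 genes. The genes most like Anpep were Irak3 at r = 0.93, and Acer1 and Stxbp3 at 0.92.

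Lct, lactase, which digests milk sugar (chromosome 1, 128284756 to 128328318, minus strand, ENSMUSG00000026354.8), was the lowest of the 10 genes. It passed 1 FPKM in 2 libraries, at 1.96 in Lgr5-Apc replicate 3 and at 1.55 in Cdx2-Apc replicate 3, and lay between 0.0764 and 0.904 in the other 10. In each of those 2 libraries all 10 absorptive genes were at 1 FPKM or more. Defa24, a Paneth cell defensin of the small intestine looked up after its values had been seen, was at 12.6 FPKM in Cdx2-Apc replicate 3 and at 2.28 in Lgr5-Apc replicate 3, at 3.46 in Lgr5-Apc replicate 4, and below 1 FPKM in the others. Lyz1, another Paneth cell gene looked up likewise, ran from 0.355 to 5.54 FPKM outside these 3 libraries. Within them it was at 6.06 in Cdx2-Apc replicate 3, at 7.98 in Lgr5-Apc replicate 3 and only at 0.892 in Lgr5-Apc replicate 4. The whole list of 8 Paneth cell markers in the table summed to 25.7, 14.8 and 11.6 FPKM in these 3 libraries and to between 0.736 and 7.26 in the remaining 9, and none was at 0 in every library. Of these markers 3 were tested and 0 passed in any comparison, with 0 at an unadjusted p below 0.05 (limma), and their part in the Lct levels was not tested.

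Across the 10 genes no single order of libraries held. Control replicate 1 was the highest library for 3 genes, Lgr5-Cdx2-Apc replicate 1 for 3, Lgr5-Apc replicate 4 for 2, and Lgr5-Apc replicate 3 and Lgr5-Cdx2-Apc replicate 2 for 1 each. Lgr5-Apc replicate 2 was among the lowest 3 libraries for 7 genes, with a sum over the 10 of 20.8 FPKM, against 365.5 FPKM in Lgr5-Apc replicate 4. Between members, r over the 12 libraries ran from -0.52 for Fabp1 and Fabp6 to 0.81 for Apoa4 and Mttp and for Apoa1 and Apob. These correlations share the libraries and their tissue make-up and are descriptions.

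By group, few of the 10 genes passed the test. In Lgr5-Apc against control 0 of 10 passed, beside 0.0115% of all genes tested, and in Cdx2-Apc against control 0 of 10, beside 0.0403%. At an unadjusted p below 0.05 these comparisons held 1 of the 10 genes (Anpep) and 0, where 10.8% and 1.64% of all genes were below that p (limma, the only tool run). In Lgr5-Apc against Cdx2-Apc 0 of 10 passed, beside 0.0346%, with 1 (Apob) at an unadjusted p below 0.05, as were 10.4% of all genes. In Lgr5-Cdx2-Apc 1 of 10 passed against control, beside 19.1% of all genes, 0 of 10 against Lgr5-Apc, beside 8.99%, with 1 (Anpep) at an unadjusted p below 0.05, as were 29.4% of all genes, and 1 of 10 against Cdx2-Apc, beside 23.8%. A share of 1 in 10 is below the background in both comparisons that called Anpep. All Lgr5-Cdx2-Apc libraries lay above all others in 1 of 10 genes in each of these comparisons, where 32.1% of all genes did so against control, 18.1% against Lgr5-Apc and 33.4% against Cdx2-Apc.

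The median log2 difference of the 10 genes was 0.065 in Lgr5-Cdx2-Apc against control beside 0.070 for all genes tested, with 5 of 10 above 0. It was 0.20 in Lgr5-Apc against control beside 0.033 for all genes, and 0.44 in Cdx2-Apc against control beside 0.037, with all 10 above 0 in the latter and none past the threshold. These 10 signs share the same libraries and are not independent, and the share of all genes above 0 was not counted. In mean FPKM, Cdx2-Apc was below control for Fabp1 (12.5 against 15.3) and Fabp2 (31.3 against 33.5) and above it for the others. The 9 genes other than Anpep had adjusted p between 0.258 and 0.956 in Lgr5-Cdx2-Apc against control. Their log2 differences there were 2.67 ± 1.64 for Apoa4, 1.43 ± 1.27 for Alpi, 0.26 ± 0.44 for Lct and 0.20 ± 0.44 for Mttp on the upper side. On the lower side stood Apob at -1.24 ± 0.91, Fabp1 at -0.65 ± 1.17, Fabp2 at -0.28 ± 1.74, Apoa1 at -0.13 ± 1.37 and Fabp6 at -0.070 ± 0.62. With a standard error of 1.74 for Fabp2, a change of several fold in that gene was not detectable in these libraries.

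**Figure D4:**
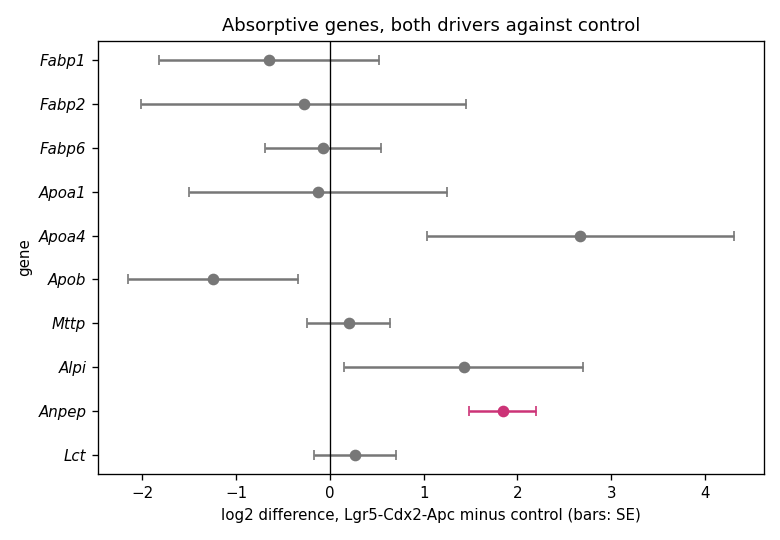
Log2 difference in log2(FPKM + 1) between Lgr5-Cdx2-Apc (n = 2) and control (n = 3) for each of the 10 genes (horizontal axis), with bars of 1 standard error; the coloured point passed the adjusted threshold. Anpep at 1.84 is the gene that passed, and the bars of Fabp2, Apoa1 and Apoa4 are the widest.

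The genes around the 10 in the same pathways were read from lists chosen by function. In Lgr5-Apc against control, Cdx2-Apc against control and Lgr5-Apc against Cdx2-Apc, 0 genes passed in any of the 5 pathway lists (limma). At an unadjusted p below 0.05 were 10.8%, 1.64% and 10.4% of all genes tested. In Lgr5-Apc against control 4 of 22 fat uptake genes and 4 of 17 transporters were below that p. There 1 of 15 hydrolases, 0 of 6 bile acid genes and 0 of 9 regulators were below it. In Lgr5-Apc against Cdx2-Apc the lists had 4, 3, 1, 1 and 1 in that order, and in Cdx2-Apc against control 0 each. In Lgr5-Cdx2-Apc against control, of 22 genes of fat uptake and chylomicron assembly tested, 3 rose and 3 fell, with a median of -0.036. Over the 5 lists 17 of 69 genes passed, or 24.6%, to be read against the 19.1% of all genes tested that were called in this comparison. Acsl5, which activates fatty acids, rose by 1.32 ± 0.32 on the log2 scale (adjusted p = 0.0214), from 24.6 to 26.6 FPKM in control to 57.6 and 76.3. Slc27a4, a fatty acid transport protein that skin also makes, rose by 2.77 ± 0.63 (adjusted p = 0.0178), and was also at 78.6, 50.1 and 40.7 FPKM in Lgr5-Apc replicates 2, 3 and 4. Cideb, a lipid droplet protein that enlarges lipoprotein particles, fell by 2.82 ± 0.63 (adjusted p = 0.0172), from 26.9 to 35.1 FPKM in control to 7.02 and 1.40. The others, named after their values were seen, were Dgat1, which completes triglyceride synthesis and rose, and Abcg5, a sterol exporter, and Apobec1, which edits the Apob transcript, which fell.

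Of 6 genes of bile acid uptake and signalling tested, 0 passed against control and 1 (Abcc3) had an unadjusted p below 0.05 (limma), as had 36.9% of all genes tested. The bile acid receptor Nr1h4 was at 12.3 to 17.2 FPKM in control, at 9.43 and 0.988 in Lgr5-Cdx2-Apc and at 65.4 in Lgr5-Apc replicate 4. Of 15 other brush border hydrolases 2 fell and 0 rose. Mgam, the maltase-glucoamylase, fell by 3.28 ± 0.80 (adjusted p = 0.0223), from 50.1 to 70.7 FPKM in control to 12.8 and 1.86. Dpp4, a dipeptidyl peptidase, fell by 1.01 ± 0.29 (adjusted p = 0.0364). Of 17 nutrient transporters 3 fell and 1 rose (Slc6a19, a neutral amino acid transporter, named after its values were seen). The glucose transporter Slc5a1 fell by 1.44 ± 0.25 (adjusted p = 0.00714), the glutamate transporter Slc1a1 by 2.19 ± 0.56 (adjusted p = 0.0257) and the iron exporter Slc40a1 by 2.32 ± 0.61 (adjusted p = 0.0277).

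Of 9 tested regulators of intestinal region and absorptive genes 4 fell and 1 rose (Prdm1, named after its values were seen), with a median of -1.30. Hnf4g fell by 2.85 ± 0.64 (adjusted p = 0.0170), Cdx1 by 3.33 ± 0.84 (adjusted p = 0.0244) and Hnf4a by 3.02 ± 0.89 (adjusted p = 0.0409), all transcription factors of the columnar gut epithelium, and Gata6, also named after its values were seen, fell as well. Gata4, a factor of the proximal small intestine, was at 0.381 FPKM or less in all 12 libraries. Of the columnar epithelium markers, Epcam was at 414.6 to 709.0 FPKM in control and at 174.5 and 65.4 in Lgr5-Cdx2-Apc, and Vil1 at 109.1 to 156.7 and at 41.6 and 3.21. The part of columnar cells in the pathway differences was not tested. The columnar mean was 7.96 to 8.59 in control and 6.46 and 3.80 in Lgr5-Cdx2-Apc, so a fit with it cannot separate cell content from group. With the columnar mean as a covariate 0 of the 69 pathway genes were called in this comparison, in a fit that called 87 of all 17360 genes. Of the 11 pathway genes given with their differences as risen or fallen, that covariate ended 10 calls and turned Hnf4a to 0.51. It left a difference of -0.16 for Mgam, -0.0097 for Cdx1 and -0.36 for Cideb. The squamous mean as a covariate, added after seeing the data, ended 10 of the 11 calls in a fit that called 1374 genes, with that of Slc5a1 left. Of the same 11 genes, 11 lost the call without Lgr5-Cdx2-Apc replicate 2, 6 without Lgr5-Cdx2-Apc replicate 1, 9 without control replicate 2 and 9 without control replicate 3. Without Lgr5-Cdx2-Apc replicate 1 or 2, the log2 difference of the hydrolase Dpp4 was -0.69 and -1.34. Leaving out 1 library gave -4.42 to -2.14 for the hydrolase Mgam. In all, the 3315 genes called in this comparison became 50 without Lgr5-Cdx2-Apc replicate 2 and 631 without Lgr5-Cdx2-Apc replicate 1.

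The same 69 pathway genes were read in the other comparisons with Lgr5-Cdx2-Apc, which share its 2 libraries. Against Cdx2-Apc, 20 of 69 passed, or 29.0%, beside 23.8% of all genes tested, and 4 rose and 16 fell: in fat uptake 2 rose and 5 fell, in bile acid handling 1 fell (Abcc3), among hydrolases 3 fell (Ace, Dpp4 and Mgam), among transporters 1 rose (Slc2a5, a fructose transporter) and 3 fell, and among regulators 1 rose and 4 fell. Against Lgr5-Apc, 5 of 69 passed, or 7.25%, beside 8.99% of all genes, and 1 rose (Slc2a5) and 4 fell (Cideb, Slc5a1, Cdx1 and Hnf4g). Slc2a5, Abcc3 and Ace are named here after their values were seen. Without Lgr5-Cdx2-Apc replicate 2, which leaves a single library in that group, most of these calls were lost in both comparisons. Without Lgr5-Apc replicate 2 the comparison with Lgr5-Apc held 3 risen and 21 fallen of the 69. That fit called 4453 of all 17223 genes, against 1560 of 17360 with all libraries, so the rise was not particular to the pathway genes. With the columnar covariate 0 of the 69 were called in either, and with the squamous covariate 0 rose and 2 fell against Cdx2-Apc and 1 rose and 2 fell against Lgr5-Apc. Of all 17360 genes, the columnar fits called 83 against Cdx2-Apc and 96 against Lgr5-Apc, and the squamous fits 760 and 1463.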

How the data were processed

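RNA sequencing of mouse rectum was deposited by the authors as FPKM, 1 value per gene and library, with no unit named in the header. Libraries were strand-specific per the labels' protocols, and STAR, Cufflinks and Cuffdiff on mm10 are named per the submitters' processing notes, with versions and annotation not given in the sources used here. Whether libraries were rescaled to one another is likewise not given. FPKM divides by library and transcript length, so a few abundant transcripts lower all others. Reads per library are unknown, so no counting interval was made. Of 27831 lines, 25 whose names a spreadsheet had turned into dates were kept unnamed, and repeated symbols were reduced to their line of highest mean, leaving 27785 genes.

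Values were tested as log2(FPKM + 1), a scale that understates changes of low genes, in 1 model over all 12 libraries with a term per group (limma 3.58.1, R 4.3.3, trended moderation, two-sided). Genes needed at least 1 FPKM in at least 2 libraries, and p-values were Benjamini-Hochberg adjusted over all 17360 genes, with 0.05 as threshold. The procedure was tested on simulated data. Alternatives were another pseudocount, other filters, median-of-ratios scaling, only the groups compared, a replicate block, marker means as covariates and leaving out libraries. Only Lgr5-Apc has a replicate 4, so the replicate block gives that library no part in the differences.

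All 10 absorptive genes were named, and from each pathway list the 3 genes with the smallest p in Lgr5-Cdx2-Apc against control and the 2 with the highest mean were eligible, of which those that passed, and Nr1h4, are given. For each absorptive gene with a mean of at least 1 FPKM, the 3 genes with the highest Pearson r over the 12 libraries are given. Of the regulator list, 2 genes are not reported here. The members and lists were chosen with earlier results of these data known. Positions came from GENCODE M21 and promoters from RefSeq, both on the build of mm10.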

Additional observations from a re-analysis of the deposited data

Results flagged for a closer look

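Within the Lgr5-Apc group, replicate 4 lay far from the other 3 libraries in 3 genes. Fabp2 was at 268.4 FPKM there, and the gap to the next library was 0.954 of the group's whole range. Fabp6 was at 8.41 FPKM with a gap of 0.884 of the range, and Alpi was at 15.4 FPKM with a gap of 0.832. All 3 gaps passed Dixon's limit for 4 samples, taken on FPKM and not on the log2 scale of the other tests. The 10 genes were each tested in this 1 group. Chance flags about 1 group in 20 only where values are normally distributed, which was not checked, and FPKM stretches the gap above a high library. The flags therefore describe the FPKM scale only.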

How the results depend on the processing

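Of 429 log2 differences of the absorptive genes under alternatives, 385 kept their direction and side of the threshold, 9 lost a call, 5 gained one and 30 turned direction. Of 138 counts of absorptive genes called, 124 did not move. The count of 1 in Lgr5-Cdx2-Apc against control became 0 with the columnar epithelium covariate. That against Cdx2-Apc became 0 with the columnar covariate, with the squamous covariate and without control replicate 1 and Cdx2-Apc replicate 1 together. The count of 0 against Lgr5-Apc became 1 with median-of-ratios scaling (Anpep adjusted p = 0.0478), without Lgr5-Apc replicates 2 and 3 together (0.0403), with the hepatocyte covariate (0.0497) and with the replicate block (0.0381). Leaving out 1 library gave 0 to 1 in each of these 3 comparisons. The hepatocyte and squamous covariates and the pair of replicates 1 were added after seeing the data.

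Against control, the Lgr5-Cdx2-Apc difference turned to 3.40 (columnar), 0.83 (hepatocyte), 0.35 (squamous) and 0.97 (without both replicates 1) for Apoa1, to 1.45 (columnar) for Apob, and to 0.73 (hepatocyte) and 0.50 (without both replicates 1) for Fabp1. It turned to 4.16 (columnar) and 1.57 (squamous) for Fabp2, to 1.37 (columnar) and 0.51 (squamous) for Fabp6, to -0.060 (squamous) for Mttp and to 0.51 (columnar) for Hnf4a. With the replicate block, in which Lgr5-Apc replicate 4 has no part in the differences, it was 0.32 for Fabp2 and 0.18 for Fabp6. Against Cdx2-Apc, Apob became 1.18 (columnar). With the hepatocyte covariate the Lgr5-Apc difference from Cdx2-Apc was 0.97 for Fabp1 and -0.12 for Anpep, and that of Fabp1 from control 0.89. Leaving out 1 library gave ranges against control of -0.54 to 3.40 for Alpi, -1.58 to 1.32 for Apoa1, -0.25 to 5.58 for Apoa4, -2.38 to -0.11 for Apob, -1.72 to 0.50 for Fabp1, -1.56 to 1.00 for Fabp2, -0.71 to 0.57 for Fabp6 and -0.27 to 0.67 for Mttp, and -0.027 to 0.50 for Anpep in Cdx2-Apc. The range for Apob against Cdx2-Apc was -2.88 to -0.60, and that for Fabp1 in Lgr5-Apc against control -2.81 to -0.59. The cause was not tested. Over all genes tested, same-numbered libraries were no more alike than others (median r = -0.020 over 15 pairs, against 0.0051 over 38), so the numbers are not taken as a pairing. That check does not cover single genes. With the replicate block the standard error of the Lgr5-Cdx2-Apc difference from control went from 1.37 to 0.75 for Apoa1 and from 1.17 to 0.72 for Fabp1. Of 3315 genes called in Lgr5-Cdx2-Apc against control, the columnar covariate left 87 and the squamous covariate 1374. Depth is unknown, so values near 0 carry no error of their own.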
